A study of Homo sapiens with 6 samples.

Results

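Genes that encode histone deacetylases, subunits of the NuRD, SIN3 and NCoR corepressor complexes, DNA methyltransferases and TET dioxygenases were compared between ONS-76 cells with and without KDM1A knockdown. The ONS-76 line was established from a human medulloblastoma, a tumor of the cerebellum. The set was defined by a list of 38 gene symbols, chosen with earlier results of these data known. A probe set of the array is a group of short probes against 1 transcript. A gene was counted as measured when at least 1 probe set named it and no other gene. On this rule 37 of the 38 genes were measured, by 99 of 54613 probe sets, among 19775 genes in all. NCOR1 was not analysed here. Each gene is represented below by its brightest probe set, the one with the highest mean over the 6 arrays, unless another is named.

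RNA from 3 siKDM1A and 3 control samples was hybridized to Affymetrix U133 Plus 2.0 arrays. The siKDM1A cells were transfected with 10 nM of 1 siRNA against KDM1A, and the control cells received transfection reagent but no siRNA, so that in any difference given here the loss of KDM1A and the delivery of an siRNA cannot be told apart. The samples were described as independent transfections of the same line, and p-values measure the spread between these arrays of 1 line. The sample labels put the harvest at 48 h after knockdown and name the target KDM5A/LSD1. LSD1 is an older name of KDM1A, whereas KDM5A is a different demethylase. The methods name KDM1A as the target and no time for the arrays, for which the text outside the methods gives 72 h. On the arrays KDM1A had log2 values of 9.50, 9.57 and 9.49 in control and of 6.25, 6.34 and 6.31 in siKDM1A cells, which is 9.33-fold lower (limma adjusted p = 7.1e-07). None of the 5 probe sets of KDM5A passed the test. On 2 of them every siKDM1A array lay below every control array, with a log2 fold change of -0.27 on the brightest and of -0.39 on the next (adjusted p in limma 0.14 and 0.056).

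All values are log2 values after robust multi-array averaging (RMA), which sets the arrays to a common distribution, and a difference of 1 is a change by a factor of 2. A gene was called higher or lower when its adjusted p in limma, a linear model that shares the estimate of spread between probe sets, was under 0.05 over all probe sets. The medians of the 6 arrays lay between 5.09 and 5.16, and their lower quartiles between 3.63 and 3.70. Signal depends on the probes as well as on the RNA, so levels are not compared between genes. Of 11 measured markers of the granule neuron lineage and of medulloblastoma, 5 had a control level below the median of all probe sets, and OTX2 and EOMES (2.92 and 3.39) were dimmer than each array's lower quartile. SOX2, ZIC2 and ZIC1, at 10.66, 8.39 and 7.03, lay above the median and were lower in siKDM1A cells (log2 fold changes of -0.43, -0.40 and -0.39). These 3 calls were not made by the one-way ANOVA after adjustment, nor by limma without any 1 of the control arrays or siKDM1A replicate b, and 1 of the 3 was left with cyclic loess and without siKDM1A replicate a or c. Of 6 measured immune cell markers 5 were below the median, and neither these nor the 7 astrocyte and oligodendrocyte markers passed limma's test or the one-way ANOVA, while 0 of these 13 had an unadjusted p under 0.05 in limma and 1, CD14 (log2 fold change 0.13), in the ANOVA. Of 10 mesenchymal and fibroblast markers, COL3A1 was higher and COL5A1 lower (log2 fold changes of 2.13 and -0.43). The COL5A1 call was lost with cyclic loess, by the one-way ANOVA (ANOVA adjusted p = 0.17) and without any 1 of the control arrays or siKDM1A replicate b or c, and the COL3A1 call was kept in each of these.

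Histone deacetylases (HDACs) remove acetyl groups from lysines of histones and of other proteins, and at genes their action is tied to silencing. The zinc-dependent enzymes fall into classes I, IIa, IIb and IV. Most class I enzymes, though not HDAC8, work inside complexes such as CoREST, NuRD, SIN3 and NCoR. Class IIa binds MEF2 transcription factors and shuttles between nucleus and cytoplasm. The sirtuins use NAD instead and are found in the nucleus, the cytosol and mitochondria. NuRD couples deacetylation to nucleosome remodeling, and KDM1A has been described both as a subunit of CoREST and as a partner of NuRD. DNMT1 copies DNA methylation to the new strand at replication, DNMT3A and DNMT3B set it anew, and the TET enzymes oxidize methylcytosine. KDM1A also demethylates DNMT1 protein, which stabilizes it, and that effect would not be seen in RNA.

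Of the 37 measured genes, 1 was higher in siKDM1A cells, 8 were lower and 28 did not pass the test. The gene that rose was HDAC9, and those that fell were HDAC4, HDAC5, HDAC11, SIRT5, RBBP4, SIN3A, SAP30 and TET3. Among all 19775 genes, each by its brightest probe set, 3.45% were called higher and 5.46% lower. Counts by role or by list further below are to be read beside such shares. All of the 37 genes except SIRT4 had a control level above the median of all probe sets, and among the 13173 genes whose brightest probe set lay above the median of all probe sets 4.59% were called higher and 7.91% lower. The median log2 fold change of the 37 genes was -0.18, with 30 negative and 7 positive values, against a median of 0.0069 over all genes and of -0.022 over the bright ones. With cyclic loess between arrays the values split into 25 negative and 12 positive ones, with a median of -0.12. After median centring they split into 32 negative and 5 positive ones, with a median of -0.21. In 15 of the 37 genes every siKDM1A array lay below every control array, and in 2 every siKDM1A array lay above; such separation was seen for 18.1% and 13.5% of all genes.

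The count of genes that fell was smaller whichever array was left out, which also leaves fewer degrees of freedom. The median log2 fold change of the 37 genes then lay between -0.22 (without control replicate b) and -0.13 (without siKDM1A replicate b). Without control replicate a, b or c limma called 1 of the 37 lower each time, SIN3A, and without siKDM1A replicate a or b it called 4. The study's test, a one-way ANOVA without spread shared between probe sets, called 1 lower after adjustment, SIRT5, and 1 higher, HDAC9. In that test 0.946% of all genes were higher and 1.26% lower. HDAC9 was called higher whichever array was left out.

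**Figure D1:**
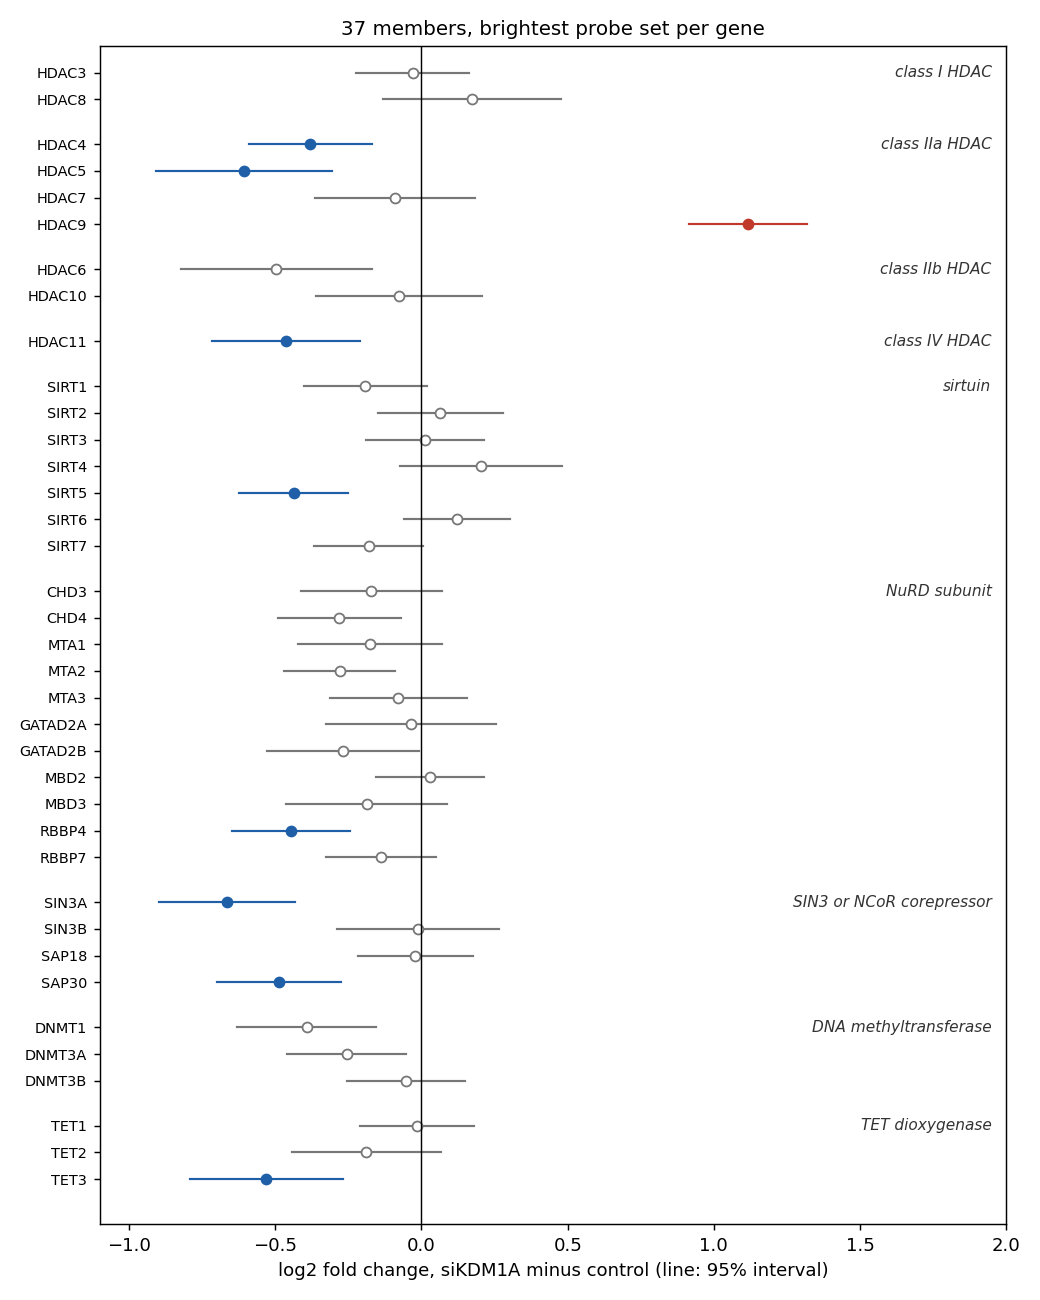
Log2 fold change (siKDM1A minus control) of the 37 measured genes, grouped by role, 1 probe set per gene; lines give the 95% confidence interval from limma, filled points mark called genes and open points the rest. HDAC9 at 1.12 is the only filled point to the right of 0, and 8 filled points between -0.67 and -0.38 lie to its left.

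HDAC9, a class IIa deacetylase that binds MEF2 factors and represses their targets, was the gene of the set that moved most. Its log2 values were 7.34, 7.33 and 7.24 in control and 8.34, 8.53 and 8.37 in siKDM1A cells. The groups lay far apart, with each siKDM1A array about 1 log2 unit above the control arrays. HDAC9 was thus 2.17-fold higher (log2 fold change 1.12, standard error 0.09, limma adjusted p = 0.00024). The 4 further probe sets that name HDAC9 all had positive values. The next brightest rose by 1.01 on the log2 scale (standard error 0.14, limma adjusted p = 0.0037). The other 3 had log2 fold changes of 0.44, 0.86 and 0.17 (standard errors 0.12, 0.47 and 0.11) and did not pass. The last 2 of these had control levels of 3.56 and 3.48, dimmer than each array's lower quartile. On the probe set at 0.86, siKDM1A replicates a and b had 5.17 and 5.05, and replicate c, at 3.07, lay below every control array. In all 15 alternative settings HDAC9 was called higher, with log2 fold changes from 0.72, where the probe sets of each gene were averaged, to 1.18.

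No other class IIa enzyme was called higher. HDAC5, which like HDAC9 lacks strong deacetylase activity of its own and acts on MEF2 targets, had log2 values of 8.09, 7.79 and 7.95 in control and of 7.43, 7.05 and 7.52 in siKDM1A cells. All siKDM1A values were below the control values, and siKDM1A replicate b was the lowest. This is 1.52-fold lower (log2 fold change -0.61, standard error 0.13, limma adjusted p = 0.030). HDAC4, the closest relative of HDAC5 in this class, had log2 values of 6.72, 6.50 and 6.64 in control and of 6.25, 6.31 and 6.16 in siKDM1A cells. Again the groups did not overlap, and HDAC4 was 1.30-fold lower (log2 fold change -0.38, standard error 0.09, limma adjusted p = 0.046). HDAC7, the remaining class IIa enzyme, had a log2 fold change of -0.09 (95% interval -0.36 to 0.18), and its groups overlapped.

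The probe sets of HDAC4 ran together and those of HDAC5 did not. On the 2 dimmer probe sets of HDAC4 the groups did not overlap, although neither passed (log2 fold changes -0.33 and -0.31, limma adjusted p = 0.094 and 0.066). On the other probe set of HDAC5 they overlapped (log2 fold change 0.04, limma adjusted p = 0.88). By the one-way ANOVA neither HDAC4 nor HDAC5 passed after adjustment (ANOVA adjusted p = 0.14 and 0.21).

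**Figure D2:**
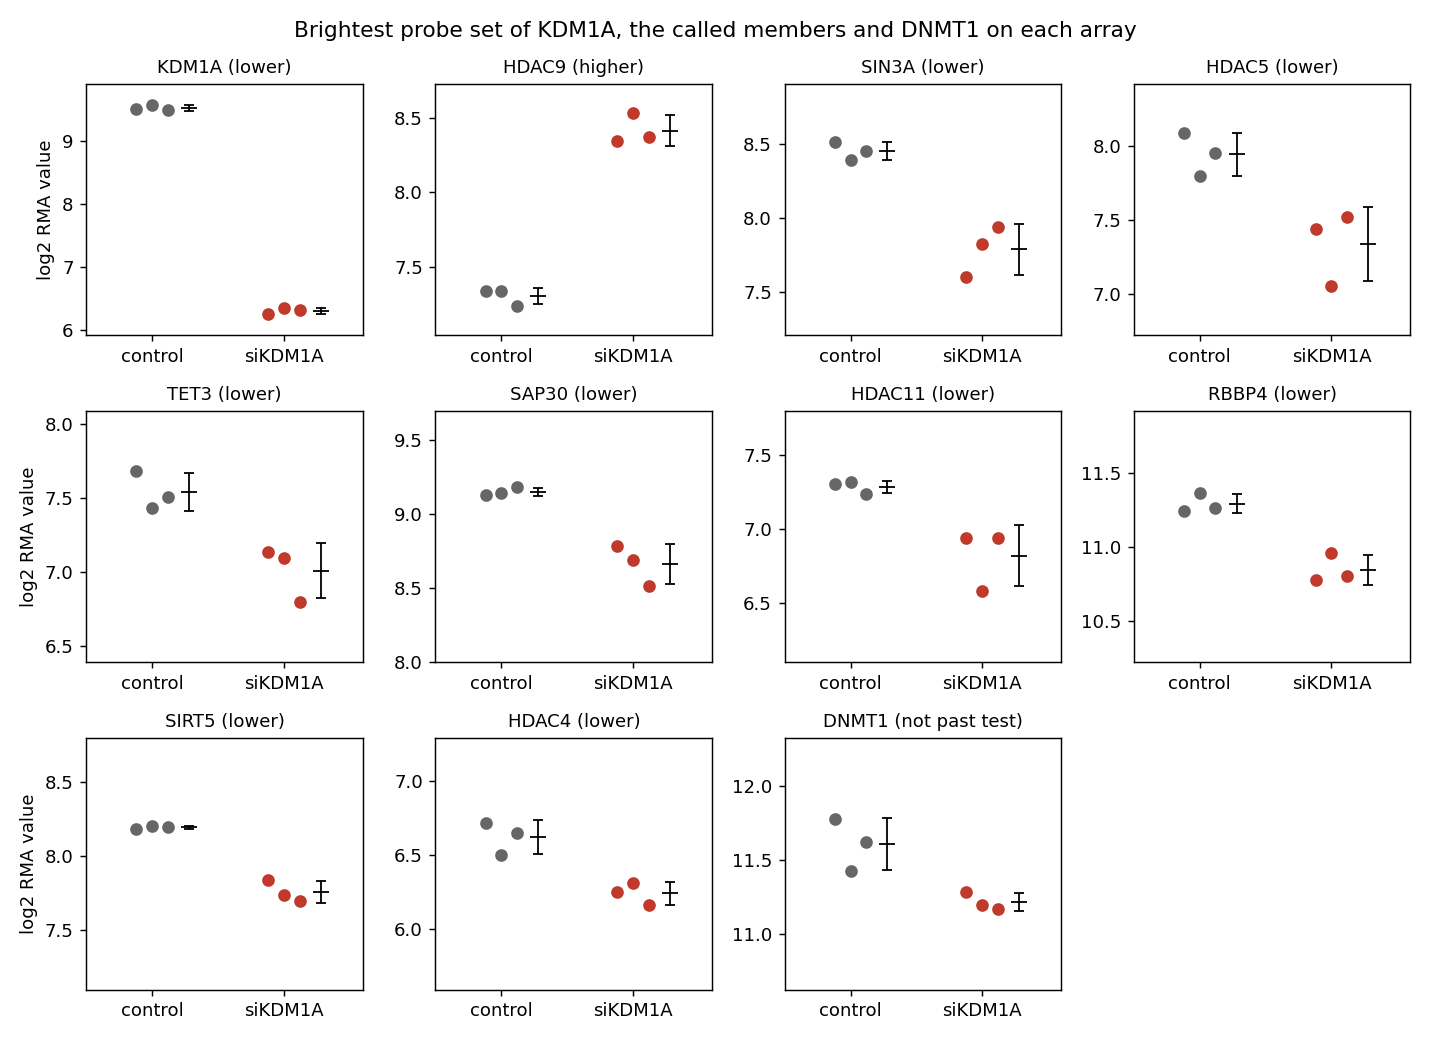
Log2 RMA value of the brightest probe set of KDM1A, of the 9 called genes and of DNMT1 in 3 grey points for control and 3 red points for siKDM1A (1 per array, replicates a, b and c), with the mean and SD of each group in black. All vertical axes span the same log2 range except the wider one of KDM1A, and in every panel the groups are apart, and HDAC9 is the panel besides KDM1A with the widest gap.

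HDAC11, the only class IV enzyme, fell on its brighter probe set. Control values were 7.30, 7.32 and 7.24, and siKDM1A values were 6.94, 6.58 and 6.94. The control arrays lay close together, whereas siKDM1A replicate b was lower than the rest of its group. HDAC11 was 1.38-fold lower (log2 fold change -0.46, standard error 0.11, limma adjusted p = 0.043), and its other probe set had a log2 fold change of 0.07 and overlapping groups (limma adjusted p = 0.72).

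The class I and class IIb enzymes did not pass the test. HDAC3, the catalytic subunit of the NCoR complex, had log2 values of 9.01, 9.16 and 9.07 in control and of 8.99, 9.10 and 9.06 in siKDM1A cells, a log2 fold change of -0.03 (95% interval -0.22 to 0.16). HDAC8 had a log2 fold change of 0.17 (95% interval -0.13 to 0.48). HDAC6, a cytoplasmic enzyme that deacetylates tubulin, had a log2 fold change of -0.50, as large as that of several called genes, with control values of 8.51, 8.16 and 8.32 and siKDM1A values of 7.73, 7.63 and 8.14. The groups did not overlap, but siKDM1A replicate c came close to control replicate b, and the test was not passed (limma adjusted p = 0.087). HDAC10 had a log2 fold change of -0.08 with overlapping groups.

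Of the 7 sirtuins, SIRT5 was lower and the others did not pass the test on their brightest probe sets (5.46% of all genes were lower). SIRT5, a mitochondrial enzyme that removes succinyl, malonyl and glutaryl groups from lysines, had log2 values of 8.18, 8.20 and 8.20 in control and of 7.83, 7.73 and 7.69 in siKDM1A cells. The control arrays lay between 8.18 and 8.20, and every siKDM1A array lay below them. SIRT5 was 1.35-fold lower (log2 fold change -0.44, standard error 0.08, limma adjusted p = 0.016) and also passed the one-way ANOVA (ANOVA adjusted p = 0.047). Its 5 dimmer probe sets had log2 fold changes from -0.15 to 0.25 and did not pass. On the one at 0.25 every siKDM1A array lay above every control array (limma adjusted p = 0.16). SIRT3, the main mitochondrial deacetylase, gave different answers on its probe sets. The brightest had a log2 fold change of 0.01 (95% interval -0.19 to 0.21), and the next, with a control level of 7.46, had one of -0.46 (standard error 0.08, limma adjusted p = 0.011, ANOVA adjusted p = 0.029). The dimmest had one of -0.14 and did not pass.

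The nuclear sirtuins were not called. SIRT1, which deacetylates p53 and histones, had a log2 fold change of -0.19 (95% interval -0.40 to 0.02). SIRT6, a chromatin-bound deacetylase of histone H3, had one of 0.12 (95% interval -0.06 to 0.30), and all its siKDM1A arrays were above the control arrays. SIRT7, found in the nucleolus, had one of -0.18 (95% interval -0.37 to 0.0067), with all siKDM1A arrays below. SIRT2 in the cytosol had one of 0.06. On its dimmer probe set, with a control level of 4.45, the value was -0.27 and did not pass (limma adjusted p = 0.19). All siKDM1A arrays lay below the control arrays there. SIRT4, with a control level of 3.59, was dimmer than each array's lower quartile and did not pass (log2 fold change 0.20).

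**Figure D3:**
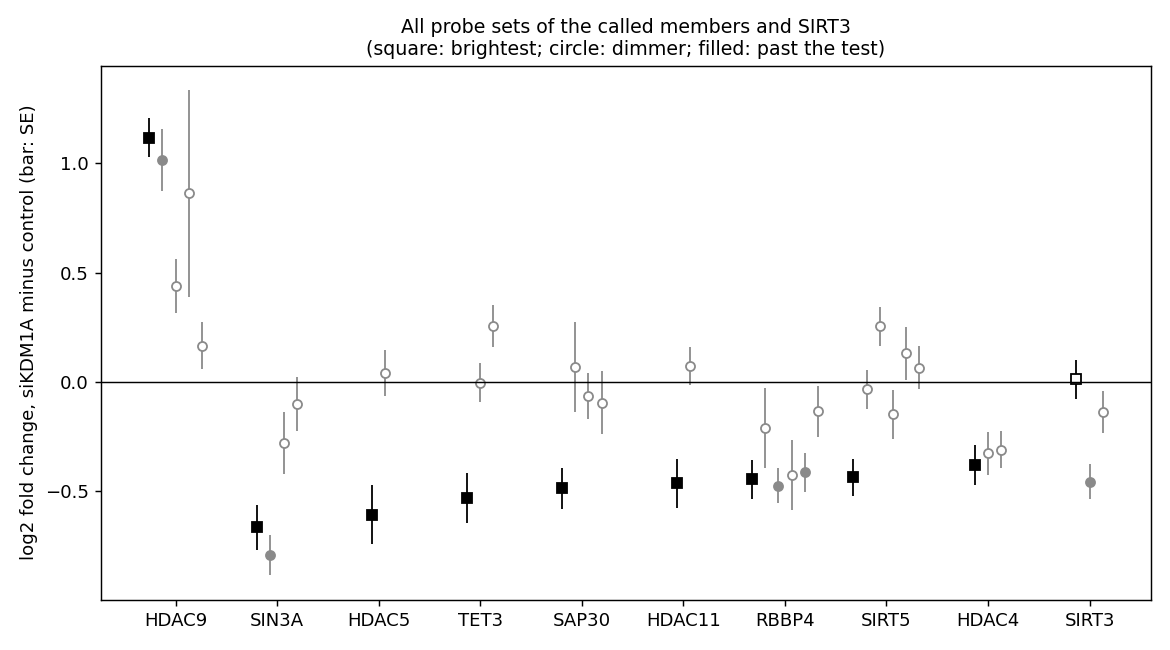
Log2 fold change (siKDM1A minus control) of every probe set of the 9 called genes and of SIRT3, with standard errors; squares are the brightest probe set of a gene, circles the dimmer ones, and filled symbols passed limma's test. HDAC9, SIN3A and RBBP4 have more than 1 filled symbol, and SIRT3 is filled on a dimmer probe set while its brightest lies at 0.01.

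NuRD holds a CHD helicase, MTA scaffolds, GATAD2 and MBD proteins and the histone chaperones RBBP4 and RBBP7. Of 11 measured subunits RBBP4 was lower and 10 did not pass the test. This 1 call in 11 is close to the 7.91% called lower among the bright genes. Of the 11 values 10 were negative, with a median log2 fold change of -0.18. With cyclic loess 9 of the 11 were negative and the median was -0.12, and after median centring all 11 were negative and the median was -0.21. RBBP4, which NuRD shares with SIN3, with the Polycomb complex PRC2 and with the replication-coupled chaperone CAF-1, had log2 values of 11.25, 11.37 and 11.26 in control and of 10.78, 10.96 and 10.80 in siKDM1A cells. The groups did not overlap. RBBP4 was 1.36-fold lower (log2 fold change -0.45, standard error 0.09, limma adjusted p = 0.021). Of its 5 dimmer probe sets, 2 were called as well, at -0.47 and -0.41 (limma adjusted p = 0.010 and 0.028), and the remaining 3 had values of -0.43, -0.21 and -0.13 and did not pass. Its close paralog RBBP7 had log2 values of 11.57, 11.61 and 11.71 in control and of 11.49, 11.52 and 11.46 in siKDM1A cells. These were separated by a small step, and its log2 fold change of -0.14 did not pass (limma adjusted p = 0.43).

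The remodeling and scaffold subunits of NuRD did not pass the test. CHD4, the main ATPase of the complex, had log2 values of 10.32, 10.15 and 10.22 in control and of 9.94, 9.85 and 10.06 in siKDM1A cells, a log2 fold change of -0.28 that did not pass (limma adjusted p = 0.13). MTA2, a scaffold that binds the deacetylases, also had a log2 fold change of -0.28 with no overlap (limma adjusted p = 0.098). GATAD2B, which bridges the remodeling and deacetylase modules, had one of -0.27 (limma adjusted p = 0.25) with overlapping groups. CHD3, MTA1, MTA3, GATAD2A and MBD3 had log2 fold changes from -0.19 to -0.04, and MBD2, the reader of methylated CpG sites, had one of 0.03 (95% interval -0.16 to 0.21). In each of these 6 genes the groups overlapped.

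Of the 4 measured genes of SIN3, SIN3A and SAP30 fell and SIN3B and SAP18 did not pass (5.46% of all genes were lower). SIN3A, the scaffold that holds HDAC1 and HDAC2 in this complex, had log2 values of 8.52, 8.40 and 8.46 in control and of 7.60, 7.83 and 7.94 in siKDM1A cells. The gap between the groups was wider than the range within either. SIN3A was 1.59-fold lower (log2 fold change -0.67, standard error 0.10, limma adjusted p = 0.0063), and its next brightest probe set was lower by more (log2 fold change -0.79, standard error 0.09, limma adjusted p = 0.0016). The 2 dimmest had values of -0.28 and -0.10 and did not pass. Of the 8 genes that fell, SIN3A was the one that limma called whichever array was left out, and it was called in 14 of 15 alternative settings, the exception being the one-way ANOVA (ANOVA adjusted p = 0.092).

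SAP30, a small subunit that stabilizes the SIN3 complex, had log2 values of 9.13, 9.14 and 9.18 in control and of 8.78, 8.69 and 8.51 in siKDM1A cells. It was 1.40-fold lower (log2 fold change -0.49, standard error 0.09, limma adjusted p = 0.017). The array's suffix marks this probe set as one whose probes can also match other transcripts, and the other 3 probe sets of SAP30 had log2 fold changes of 0.07, -0.06 and -0.09 and overlapping groups. The paralog SIN3B had log2 values of 7.70, 7.42 and 7.52 in control and of 7.66, 7.29 and 7.65 in siKDM1A cells, which overlapped throughout (log2 fold change -0.01, 95% interval -0.29 to 0.27). SAP18, another subunit, had a log2 fold change of -0.02 (95% interval -0.22 to 0.18).

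The 3 DNA methyltransferases did not pass the test. The log2 values of DNMT1 were 11.78, 11.42 and 11.62 in control and 11.28, 11.20 and 11.17 in siKDM1A cells. Every siKDM1A array was below every control array, and the control arrays were the more spread. Its log2 fold change was -0.39 (standard error 0.11, limma adjusted p = 0.065), and the test was passed in 4 of 15 alternative settings, with adjusted p-values from 0.014 to 0.21 over all of them. DNMT1 was measured by 1 probe set. DNMT3A had a log2 fold change of -0.26 on its brightest probe set, with no overlap between the groups (limma adjusted p = 0.16), and of -0.14 and 0.09 on its others. DNMT3B had a log2 fold change of -0.05 (95% interval -0.25 to 0.15).

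Of the 3 TET genes, TET3 was lower. Its log2 values were 7.68, 7.43 and 7.50 in control and 7.14, 7.09 and 6.79 in siKDM1A cells, with siKDM1A replicate c the lowest. TET3 was 1.45-fold lower (log2 fold change -0.53, standard error 0.12, limma adjusted p = 0.029). Its 2 dimmer probe sets, with control levels of 4.76 and 4.26 under each array's median, did not pass (log2 fold changes -0.0032 and 0.26). On the one at 0.26 every siKDM1A array lay above every control array (limma adjusted p = 0.19). TET2 had a log2 fold change of -0.19 (95% interval -0.44 to 0.07) and TET1 one of -0.02 (95% interval -0.21 to 0.18).

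Agreement between probe sets divided the 9 called genes. All 9 have several probe sets, and in 3 of them, HDAC9, SIN3A and RBBP4, a further probe set was called in the same direction. In the other 6 no further probe set was called. Over all 99 probe sets of the 37 genes, 2 were called higher and 12 lower, against 2.18% and 3.73% of all probe sets. Of the 28 genes that did not pass, 26 had a 95% interval that lay within a 1.5-fold change in either direction, with bounds between -0.53 and 0.48. The intervals of HDAC6 and DNMT1 reached past a 1.5-fold fall.

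Genes that work with this set were followed in 4 lists, also chosen with earlier results of these data known. Of all genes 5.46% were called lower, and of the bright ones 7.91%. Of 11 measured genes of CoREST and its class I deacetylases, 3 were lower, namely KDM1A itself, the HMG-box subunit HMG20B (log2 fold change -0.51) and GSE1 (-0.68). The deacetylases HDAC1 and HDAC2 did not pass, at -0.21 and -0.02 on the log2 scale (adjusted p in limma 0.22 and 0.94). Of 16 other subunits of NuRD, SIN3 and NCoR, 3 were lower and none higher. These were SUDS3 and SAP30L, both of SIN3, and TBL1X of NCoR (-0.74, -0.52 and -0.68 on the log2 scale, with adjusted p in limma of 0.0037, 0.011 and 0.0022). The median of this list was -0.24, and 13 of its 16 values were negative. Without control replicate a or c, or siKDM1A replicate b, KDM1A was the only CoREST gene called. By the one-way ANOVA 1 gene of each of these lists was called, KDM1A and TBL1X.

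Of 18 readers of methylated DNA and partners of DNA methylation, UHRF1, which brings DNMT1 to newly replicated DNA, was lower (log2 fold change -0.63, limma adjusted p = 0.0070), and the one-way ANOVA did not call it (ANOVA adjusted p = 0.088). The other 17 were not called, and 1 call in 18 is close to the 5.46% of all genes called lower. The median of this list was -0.11. Of 14 histone acetyltransferases, the enzymes that oppose the deacetylases, 4 were lower and none higher, and all 14 values were negative (13 with cyclic loess) with a median of -0.27. The 4 were KAT6B, TAF1, KAT8 and KAT5 (-0.87, -0.65, -0.46 and -0.44 on the log2 scale), with adjusted p in limma between 0.0019 and 0.032. Without control replicate a, b or c 2 of the 14 were called, and the one-way ANOVA called TAF1 alone.

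RBBP4, DNMT1 and UHRF1 belong to chromatin assembly or DNA methylation at the replication fork, so genes of S phase were measured beside them. This list, like those above, was chosen with earlier results of these data known. Of its 19 measured genes, 17 were lower and none higher, against 5.46% lower among all genes and 7.91% among the bright ones. The log2 fold changes ran from -0.93 for MCM5 to -0.28 for PCNA, with a median of -0.55. In each of the 19 every siKDM1A array lay below every control array, which was seen for 18.1% of all genes. The 4 with the largest fall were MCM5, CDT1, MCM3 and MCM2 (log2 fold changes of -0.93, -0.75, -0.71 and -0.70). PCNA and CCNE2 had adjusted p in limma of 0.086 and 0.069 and were not called. Without control replicate c 10 of the 19 were called, and 5 by the one-way ANOVA, which called 1.26% of all genes lower. What part the S phase genes have in the lower values of RBBP4, DNMT1 or any other gene of the set was not tested.

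**Figure D4:**
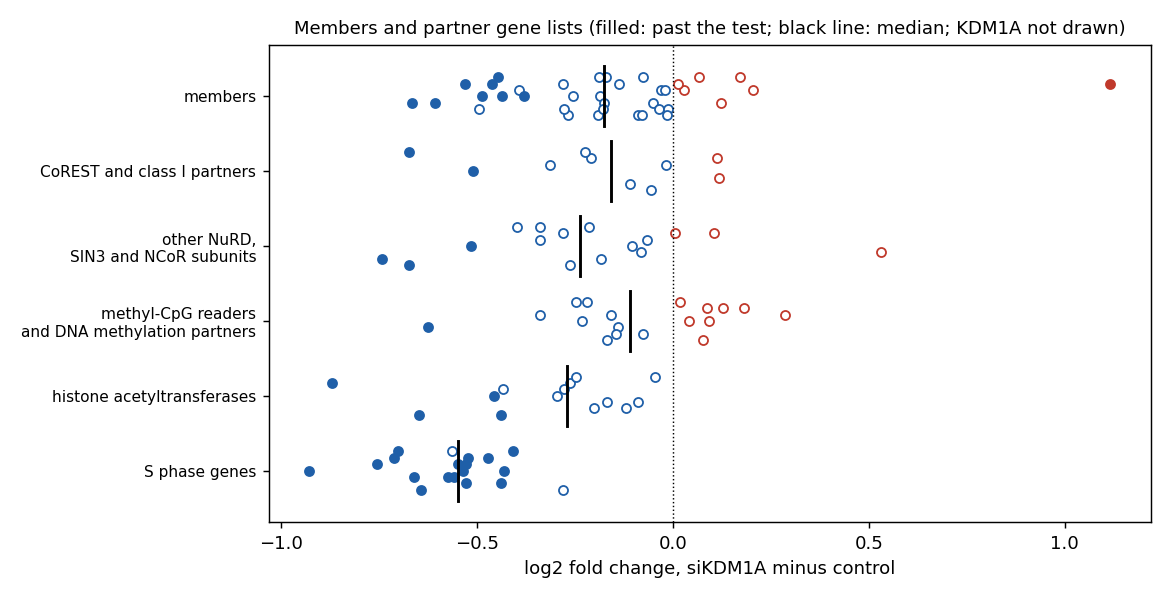
Log2 fold change (siKDM1A minus control) of the 37 genes and of the 5 related gene lists, 1 point per gene, spread vertically for legibility; filled points passed limma's test, and black lines give each list's median, with KDM1A (-3.22) not drawn. The medians lie between -0.27 and -0.11 except that of the S phase genes, at -0.55.

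Promoters were searched for letters that are known binding motifs. Windows from 250 bases before to 50 bases after a transcription start were taken from RefSeq (GRCh38.p14), which gave 62 windows for 34 of the 37 genes. The motif of E2F factors, which drive S phase genes, was searched as TTTCCCGC, TTTGGCGC, TTTCGCGC or TTTGCCGC, and that of MEF2 factors as CTATTTTTA or CTAAAAATA, on both strands. The letters of the MEF2 motif overlap each other, so that 1 stretch can match both. The MEF2 letters were chosen after the rise of HDAC9 and its windows had been seen, so a match in HDAC9 is no test. An E2F match was found for 3 of the 34 genes (8.82%), SIN3A, DNMT1 and SIRT6, against 3.99% of all 27305 genes with a window and 10 of 16 S phase genes (62.5%). Genes of the set have more windows each, and counted by window the share was 4.84% of their 62 windows against 3.31% of all 35116. Of the 8 genes that fell, 7 had a window, and SIN3A alone had a match, in 1 of their 15 windows (6.67%). RBBP4 had no match, and DNMT1 and SIRT6 were not among the called genes. The log2 fold change of SIRT6 was positive (0.12), with every siKDM1A array above every control array. A MEF2 match was found for HDAC9 alone, in 1 of its 5 windows. The letters occur for 1.02% of all genes, and in 1.61% of the set's windows and 0.812% of all windows. Given how the letters were chosen, these shares only describe how common they are. The windows printed here run up to base 30 from the start and are those of the gene that rose, of the fallen gene whose call was the most stable to leaving out arrays, and of DNMT1, with the matching letters in capitals. They lie at chr7:18086575-18086854 on the plus strand, and at chr15:75451661-75451940 and chr19:10194924-10195203 on the minus strand.
HDAC9: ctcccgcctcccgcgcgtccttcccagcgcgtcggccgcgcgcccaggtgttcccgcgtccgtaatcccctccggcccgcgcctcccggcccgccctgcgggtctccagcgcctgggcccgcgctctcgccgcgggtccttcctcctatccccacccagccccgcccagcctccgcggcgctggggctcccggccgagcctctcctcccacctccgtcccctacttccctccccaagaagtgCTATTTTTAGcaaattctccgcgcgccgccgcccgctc
SIN3A: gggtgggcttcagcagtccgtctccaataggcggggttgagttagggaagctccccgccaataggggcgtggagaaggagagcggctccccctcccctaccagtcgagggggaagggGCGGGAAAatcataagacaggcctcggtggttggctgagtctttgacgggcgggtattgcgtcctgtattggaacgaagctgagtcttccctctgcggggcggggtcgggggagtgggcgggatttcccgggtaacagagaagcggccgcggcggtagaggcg
DNMT1: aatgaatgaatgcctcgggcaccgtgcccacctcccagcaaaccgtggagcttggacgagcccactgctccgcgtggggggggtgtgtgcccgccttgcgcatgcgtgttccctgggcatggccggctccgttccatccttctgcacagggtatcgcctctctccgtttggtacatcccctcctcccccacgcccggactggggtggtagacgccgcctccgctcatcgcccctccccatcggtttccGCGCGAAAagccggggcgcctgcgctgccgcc

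In the HDAC9 window both MEF2 spellings match 1 run of 10 bases that starts 8 bases before the start of transcription. In the SIN3A window the E2F match starts 133 bases before the start and in the DNMT1 window 2 bases before it, both read on the opposite strand. SIN3A has 2 windows in the table and the other holds no match. Such matches describe the letters of these windows and not the binding of any factor, which was not measured.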

How the data were processed

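Gene expression of 6 ONS-76 samples, 3 siKDM1A and 3 control, was measured on Affymetrix U133 Plus 2.0 arrays. The deposited values are log2 values of 54675 probe sets that the authors had made by RMA in Partek (version: not given in the sources used here). They were used as they stand. After 62 Affymetrix controls were left out, 54613 probe sets entered limma 3.58.1 under R 4.3.3 (functions lmFit and eBayes, two-sided, Benjamini-Hochberg adjustment over all probe sets, threshold 0.05). The one-way ANOVA of the methods was an alternative. Genes were named from the platform annotation, and only probe sets naming 1 gene (41091) were used. Groups followed the treatment label. The gene set and 9 further lists (126 genes, 112 of them measured) were chosen with earlier results of these data known. Every gene of the set that passed the test is named with all values, and of each list up to 4 called genes. Precision is limited by the 3 arrays per group, and no detection call was made. The steps were tested on simulated data. Alternatives were 2 scalings, leaving out dim probe sets, a prior with an intensity trend, a replicate block, 3 probe set rules and leaving out each array.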

Additional observations from a re-analysis of the deposited data

How the results depend on the processing

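HDAC9 was called higher in all 15 alternatives. The number of genes called lower, 8 in the main test, was 4 with cyclic loess between arrays and 1 with the one-way ANOVA. It was 5 where each gene's probe sets were averaged. When 1 array was left out it ran from 1 to 6 (1 without each control array, 4 without siKDM1A replicate a or b, 6 without c). It was 9 after median centring, with an intensity trend or with the most changed probe set, and 10 with the filter on dim probe sets. It was 7 where probe sets that can match several transcripts were left out for genes that have others. Genes measured only by such probe sets kept them. Some of these counts include genes outside the 8. These were MTA2 and DNMT1 with averaged probe sets or the filter on dim ones, and DNMT1 after median centring or with an intensity trend. They were SIRT3 with the most changed probe set and HDAC6 without siKDM1A replicate c. Of the 8 genes, HDAC4 and HDAC11 lost their call in 9 of 15 alternatives each, HDAC5 and TET3 in 8, SAP30 and RBBP4 in 6, SIRT5 in 4 and SIN3A in 1. SIRT3, at 0.01 on its brightest probe set, had a log2 fold change of -0.46 on the most changed one. The cause of these changes was not tested. Fewer arrays leave fewer degrees of freedom.

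The labels give the replicates of both groups the letters a, b and c, but nothing says that a letter marks a shared transfection day. Deviations from the group means correlated at 0.11 for a, 0.23 for b and -0.13 for c, and samples of 1 letter did not always correlate best with each other, so they were not treated as pairs. With the replicate block 6 genes were called lower and 1 higher, and the calls lost were those of HDAC4 and HDAC11 (limma adjusted p = 0.084 and 0.069) and, among the marker genes, of SOX2, ZIC2 and ZIC1, and among the S phase genes of POLA1 and RFC4. Arrays resembled each other, with a correlation over probe sets of at least 0.99 between any 2 arrays, and 0 pairs held identical values.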
